A study of Danio rerio with 18 samples.

Results

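Among the transcripts of whole zebrafish (Danio rerio) embryos, 115 were raised in gastrulae by added all-trans retinoic acid (atRA) and rose strongly in untreated development by 12 somites. Their group means differed little between atRA and control embryos at 12 somites and 24 hours post fertilisation (24 hpf). Many of these differences were loosely bounded at 24 hpf. The 115 were chosen on measured values from 58549 versioned Ensembl transcript IDs. The conditions were applied to group means of CPM (the counts of an ID scaled to a common library total), each difference being a log2 ratio with 0.5 CPM added to both means: an atRA over control difference of at least 1 at 80% epiboly, absolute differences below 0.5 at 12 somites and at 24 hpf, and a difference of at least 2 for 12 somites over 80% epiboly controls, called the normal rise below. The first condition was met by 638 IDs, 319 of these also met the second and 240 the third, and 115 met all of them, so a stated maximum of 200 was not reached. Every measure used in these conditions is given below as a description and supports nothing.

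The samples were wild-type whole embryos grown at 28°C, in 6 groups of 3 libraries. Embryos collected at 80% epiboly had been exposed to 0.1 µM atRA, or to DMSO, its solvent, in controls, from 30% epiboly, and embryos collected at 12 somites or 24 hpf from 80% epiboly. The gastrula and the later embryos therefore differed in the onset and length of exposure as well as in stage, and the later embryos are not the same exposure followed further. Nothing in the labels says whether the replicates came from separate clutches, so p-values measure the spread between these libraries, which may be technical. Counts assigned to IDs ran from 38673189 to 115511468 per library. At 24 hpf the atRA libraries, with 38673189 to 50505506 counts, were all shallower than the control libraries, with 68391282 to 72734557.

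Retinoic acid is made from vitamin A by retinaldehyde dehydrogenases and removed by enzymes of the Cyp26 family. It binds nuclear retinoic acid receptors that sit with retinoid X receptors on response elements in DNA, and in vertebrate gastrulae it is known for its part in patterning the hindbrain, spinal cord and trunk mesoderm, including the ordered onset of Hox genes. In fish gastrulae the blastoderm spreads over the yolk, a movement named epiboly, and later embryos are staged by their somites, the paired blocks that give rise to trunk muscle and skeleton. None of the 58549 IDs (0 matched) could be paired with a gene name by the tables used here, so the roles of the members are not known here, no list of pathway genes or cell type markers could be applied, and whole-embryo identity was not checked against markers. In whole embryos, more cells of a type and more RNA per cell cannot be told apart.

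The 115 IDs are fewer separate signals than their number. Counts that differed by at most 5% or 5 counts in every library tied 28 of them into 13 sets of up to 3, and 1 pair was identical in all 18 libraries, which leaves 100 with 1 ID per set. Other members with close values fell outside this tolerance, so 100 may still overstate the separate signals. How the counting treated reads shared by isoforms, gene copies or overlapping genes is not given in the sources used here.

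Summed over the 115 members, the level at 80% epiboly was 857, 822 and 796 CPM in the atRA libraries, against 295, 301 and 293 CPM in the control libraries. It was 3747, 3717 and 3770 CPM with atRA and 3648, 3508 and 3643 CPM in controls at 12 somites. At 24 hpf it was 3847, 4078 and 3501 CPM with atRA and 4045, 3528 and 4534 CPM in controls. The gastrula groups lay apart, and the atRA gastrulae lay far below all libraries of the later stages. At 24 hpf the groups overlapped, and the control libraries alone spanned a wider range than the atRA libraries.

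**Figure D1:**
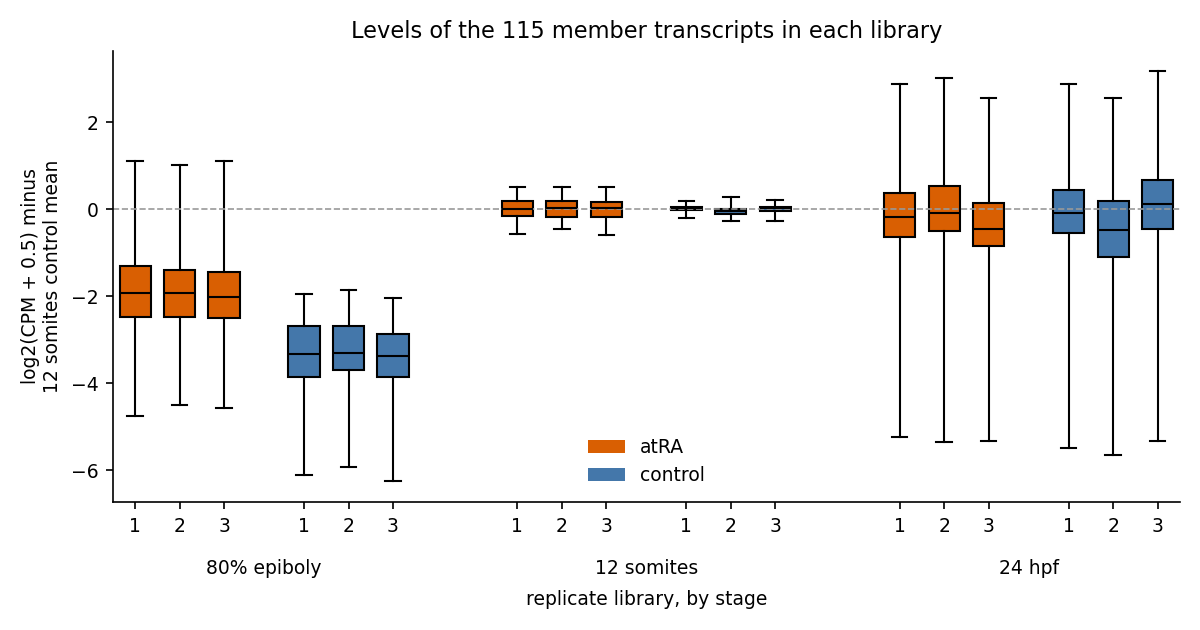
Level of the 115 members in each library as log2(CPM + 0.5) minus the value of each member's mean in 12 somites controls; the box spans the quartiles, the line is the median and the whiskers reach the lowest and highest member. At 80% epiboly the library medians were -1.93 to -2.02 with atRA and -3.31 to -3.38 in controls, while at 24 hpf they ran from -0.438 to -0.0778 with atRA and from -0.475 to 0.128 in controls.

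At 80% epiboly the members' differences on the CPM scale with 0.5 added ran from 1.002 to 3.13, with a median of 1.23 and quartiles of 1.08 and 1.54, against a median of 0.049 over the 38203 IDs tested at that stage. Most sat near the lower limit: 82 were below 1.5, 23 from 1.5 to below 2, and 10 at 2 or above. Without the added 0.5, the ratio of mean CPM ran from 2.09 to 38.9 with a median of 3.17, since the added value understates the change of low transcripts. All 115 passed the filter on low counts at this stage. The median coefficient of variation of a member's CPM was 9.38% with atRA and 13.1% in controls, where it was over 50% for 6 members. Over the IDs tested at this stage with a group mean above 0.5 CPM these medians were 6.3 and 6.95%. The members had no such minimum, and their lowest means were 0.603 CPM with atRA and 0.0155 CPM in controls, so the sets are unlike. Every atRA library lay above every control library in 115 of 115 members, against 27.6% of all IDs tested, and edgeR's quasi-likelihood test called 115 higher, against 14.1% of all IDs tested. These counts follow from the choice.

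The limits cut through a continuous range. The members nearest the gastrula limit had differences of 1.002 and 1.004, and the nearest IDs that missed it while meeting the other conditions had 0.9879 and 0.9822. For the normal rise the nearest members had 2.01 and 2.02, and the nearest IDs outside had 1.992. For 12 somites the nearest absolute differences were 0.4959 inside and 0.5011 outside, and for 24 hpf they were 0.4888 inside and 0.5144 outside.

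By ID, 4 members are described in full. The first of them, ENSDART00000044057.5, had the largest gastrula difference, with 0.5 CPM added, of the 110 members with a mean of at least 10 counts in every group. Its fitted log2 fold change, on a scale without the added 0.5 CPM, was 4.01, below the 4.4 of another such member. It stood at 8.29, 7.73 and 8.32 CPM in atRA gastrulae, against 0.553, 0.483 and 0.416 CPM in control gastrulae. Its control level at 12 somites was 3.67, 3.29 and 3.72 CPM, so the atRA gastrulae held 228% of the mean that control embryos reached at 12 somites. In embryos treated from 80% epiboly it stood at 4.4, 3.91 and 3.92 CPM at 12 somites, all above the control libraries of that stage, a log2 fold change of 0.21 that was not called (adjusted p = 0.0608, edgeR quasi-likelihood test). At 24 hpf it stood at 12, 11.8 and 10.1 CPM with atRA and 14.8, 13.4 and 13.9 CPM in controls, and the groups did not overlap. That log2 fold change was -0.23 with a 95% interval of -0.48 to 0.03 (adjusted p = 0.252, edgeR). In controls its level rose on between 12 somites and 24 hpf, 1.97 higher on the log2 scale at 24 hpf (SE 0.11, adjusted p = 9.9e-06 by edgeR), a comparison outside the choice.

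ENSDART00000155866.1 had the next largest gastrula difference and the largest normal rise of the members, 6.06 on the log2 scale, both with 0.5 CPM added. Fitted log2 fold changes, without the added 0.5 CPM, ranked it lower in both. It stood at 9.66, 8.86 and 8.93 CPM in atRA gastrulae and 0.744, 0.818 and 0.554 CPM in control gastrulae. At 12 somites it reached 109, 110 and 112 CPM with atRA and 82, 75.7 and 82.1 CPM in controls, without overlap, so its gastrula level with atRA was 11.4% of the 12 somites control mean. This member met the 12 somites condition with a difference inside the limit that was still larger than the spread between libraries: the log2 fold change was 0.49 (95% interval 0.4 to 0.58, adjusted p = 6.44e-08, edgeR). At 24 hpf its levels overlapped, with 57.2, 55.9 and 44.3 CPM with atRA and 60.1, 45.7 and 77.5 CPM in controls. Its controls fell by 0.41 on the log2 scale between 12 somites and 24 hpf (adjusted p = 0.0347, edgeR). That call was lost when control replicate 1, 2 or 3 of 12 somites or control replicate 1 of 24 hpf was left out (adjusted p = 0.0941, 0.0717, 0.0874 and 0.0973, edgeR), and with scaling by library totals (adjusted p = 0.111, edgeR).

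ENSDART00000075126.3 and ENSDART00000134944.3 had the most negative fitted log2 fold changes of 24 hpf over 12 somites in controls among members with at least 10 mean counts in every group. With 0.5 CPM added, which weighs on low transcripts, the order differs. ENSDART00000075126.3 stood at 4.91, 5.05 and 4.62 CPM in atRA gastrulae and 1.42, 1.4 and 1.31 CPM in control gastrulae, and its later control libraries held 4.25, 4.92 and 4.25 CPM at 24 hpf against 13.5, 14.9 and 13.4 CPM at 12 somites. On the log2 scale 24 hpf stood at -1.64 relative to 12 somites (SE 0.14, adjusted p = 8.09e-05 by edgeR). The atRA embryos went the same way, with 4.87, 5.15 and 5.54 CPM at 24 hpf and 17.3, 16.8 and 18.1 CPM at 12 somites. This member was thus higher with atRA at 12 somites, without overlap, by a log2 fold change of 0.34 (95% interval 0.21 to 0.46, adjusted p = 0.000215, edgeR). At 24 hpf its log2 fold change of atRA over control was 0.3 and was not called (adjusted p = 0.359, edgeR). Its level in atRA gastrulae was thus close to that of both 24 hpf groups, with the 12 somites peak between them.

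ENSDART00000134944.3 was a low transcript with 15 to 21 counts per library in control gastrulae. It stood at 0.78, 0.815 and 1.12 CPM in atRA gastrulae and 0.211, 0.157 and 0.147 CPM in control gastrulae. At 12 somites it was lower with atRA, at 1.86, 1.86 and 1.67 CPM against 2.8, 2.6 and 2.53 CPM in controls, with a fitted log2 difference of -0.54 (adjusted p = 0.000514 by edgeR) on a scale without the added 0.5 CPM. At 24 hpf it stood at 1.49, 1.76 and 1.13 CPM with atRA and 1.17, 0.67 and 1.13 CPM in controls, with overlap. The fitted log2 fold change there was 0.65 (95% interval 0.1 to 1.2) and was not called (adjusted p = 0.135, edgeR). With 0.5 CPM added, the differences were -0.454 at 12 somites and 0.396 at 24 hpf. This member thus met both limits of 0.5 with that addition, and its fitted values lay outside them in opposite directions. Its controls at 24 hpf stood at -1.44 relative to 12 somites on the log2 scale (SE 0.19, adjusted p = 0.000626 by edgeR). In atRA embryos the same comparison gave -0.24, which was not called (adjusted p = 0.187, edgeR).

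**Figure D2:**
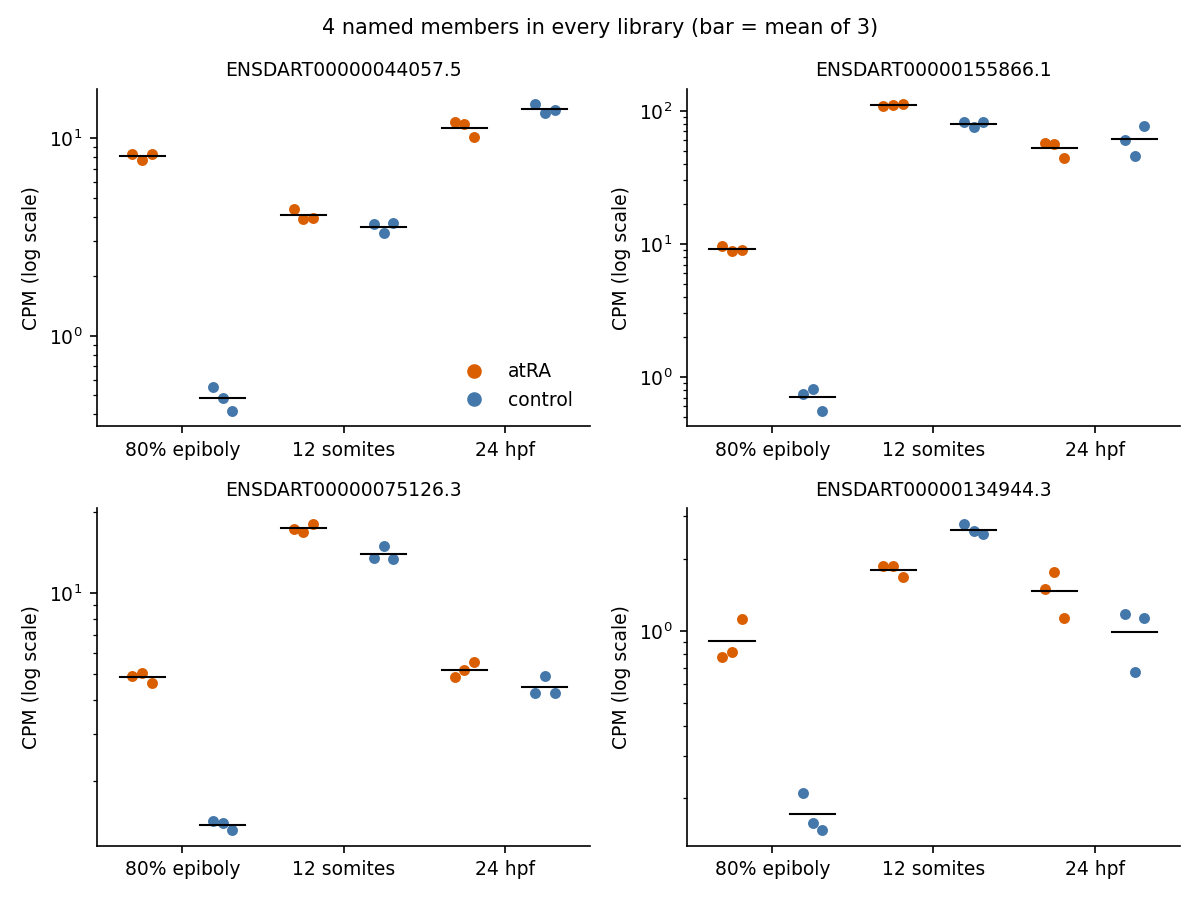
CPM (log scale) of 4 members in each of the 18 libraries, atRA left of control at each stage, with a bar at the mean of 3. ENSDART00000044057.5 is the member whose atRA gastrulae, at 7.73 to 8.32 CPM, exceeded its 12 somites controls, at 3.29 to 3.72 CPM.

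Because the members all rise in normal development, their level in atRA gastrulae can be set against the level control embryos reached at 12 somites. The atRA gastrulae held a median of 24.4% of the 12 somites control level, with quartiles of 16.3 and 37% and a range of 2.32 to 228%. In control gastrulae the median was 6.36% and the range 0.0597 to 23%. These percents are of CPM scaled by library totals and depend on that scaling. The members' median log2 fold change of 12 somites over 80% epiboly controls was 3.98 by library totals and 3.65 with TMM factors. With atRA, 61 of the 115 members stayed below 25% and 12 below 10%, while 11 were at 50% or above and 2 at 100% or above. On the log2 scale the gastrula difference was a median of 39% of the normal rise, with quartiles of 31.9 and 50.3%. Both quantities contain the same control gastrula libraries, so their relation across members was not measured.

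**Figure D3:**
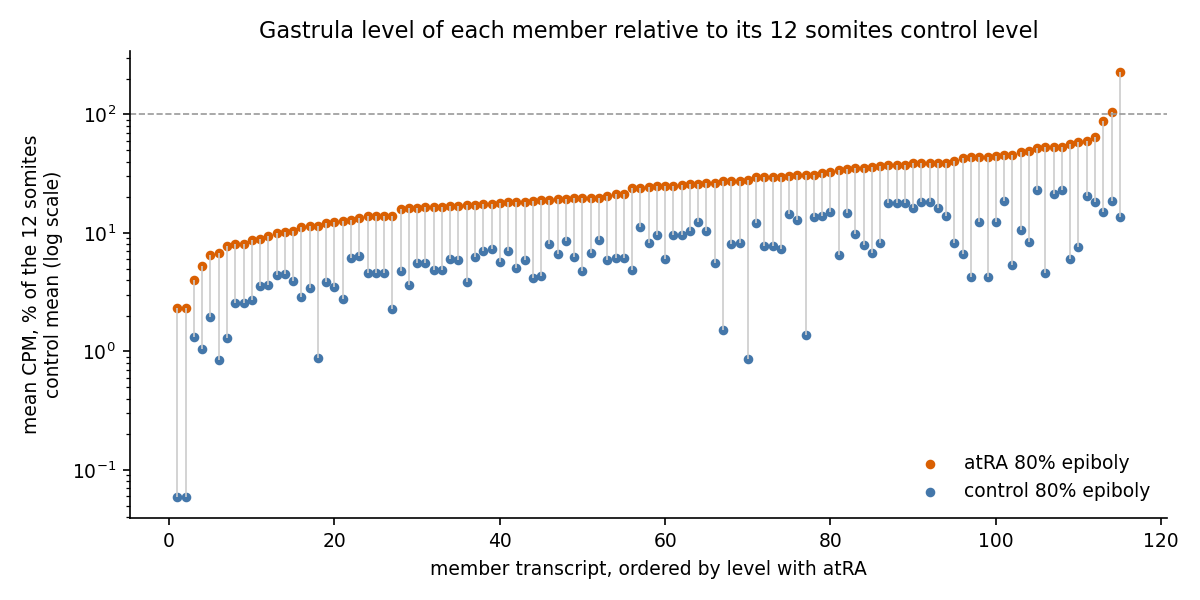
Mean CPM of each of the 115 members in atRA and control gastrulae as a percent of its 12 somites control mean (log scale, dashed line at 100%), ordered by the atRA value. The atRA values run from 2.32 to 228% with 2 members at or above 100%, and the control values from 0.0597 to 23%.

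The median percent of the 12 somites level was 44% for the 10 members with a gastrula difference of at least 2, with a range of 7.71 to 228%. It was 29.7% for the 23 between 1.5 and 2 and 19.6% for the 82 below 1.5, where the highest were 65.1 and 59.3%, so the ranges overlapped. The gastrula difference and the percent both contain the atRA gastrula level, and the bands had similar median rises of 3.41, 3.28 and 3.33. The order of the 3 medians thus follows from the banding and is not a result. The normal rise itself ran from 2.01 to 6.06 with a median of 3.31, and 21 members had a rise of at least 4. All 115 were called higher at 12 somites than at 80% epiboly in controls, against 44.3% of all IDs tested, again by the choice.

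A pair of near-identical IDs had the lowest gastrula levels relative to 12 somites in atRA and in control embryos. Its atRA gastrulae held 43 to 71 counts per library, a total of 167, and its control gastrulae 1, 1 and 3 counts, a total of 5. The ratio of these totals per count sequenced was 37.6, with an exact 95% counting interval of 15.8 to 117 that covers counting error only. At 12 somites the pair stood at 17.2 to 24.6 CPM with atRA and 21.6 to 31.5 CPM in controls. At 24 hpf it was down to 6 to 9 counts per library with atRA and 2 to 11 in controls. The pair met the limit on the 24 hpf difference at means of 0.172 CPM with atRA and 0.0952 CPM in controls, both under the 0.5 CPM added to them, and it was the pair that the filter on low counts removed at 24 hpf. The pair is described because of its values, chosen after they were seen.

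At 12 somites the members' differences on the CPM scale with 0.5 added ran from -0.454 to 0.496 by the choice, with a median of 0.0391. Replicates at this stage were tight: the median coefficient of variation of a member's CPM was 4.9% in atRA and 5.37% in control libraries. Over all IDs above 0.5 CPM the medians were 5.22 and 5.42%, so this is not particular to the members. Small differences were therefore resolved. The edgeR test called 62 of 115, against 36.1% of all IDs tested, 35 higher and 27 lower, against 17.7 and 18.5% of all IDs tested. The called differences had absolute log2 fold changes of 0.149 to 0.541, and by the 95% interval 98 of 115 members lay wholly within 0.5 of no change and all 115 within 1. The 10 members with the largest gastrula differences included 6 that were called higher and 1 called lower at 12 somites. A near-identical pair is counted among those 6. Meeting the limit at 12 somites was thus not the absence of a difference, since 62 of 115 members were called. The limit was applied to the same libraries, so the small differences and the intervals within 0.5 or 1 follow in part from the choice. The intervals were not corrected for it, so their 95% coverage cannot be relied on for these members and they bound no difference independently. The contrast was used in the choice, so these shares say nothing of the members as a group.

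At 24 hpf the same limit left much less known. The median coefficient of variation of a member's CPM was 11.6% with atRA and 21.7% in controls, and it was over 50% for 17 members in controls. The corresponding medians over all IDs above 0.5 CPM were 11.3 and 16.3%. Relative to 12 somites controls the members' median ran from -0.438 to -0.0778 in the atRA libraries, and lay at -0.475 in control replicate 2 and at 0.128 in control replicate 3. Over the 43030 IDs tested between the control groups, these control libraries were at -0.0823 and 0.107. Of the 113 members tested, 34 had a 95% interval wholly within 0.5 of no change and 95 within 1. For 18 members the interval thus reached beyond 1 on at least 1 side. Here too the limit was applied to the same libraries, so the intervals within 0.5 or 1 follow in part from the choice. The test called 3 members, 2 higher and 1 lower, against 9.6% of all IDs tested, 4.09% higher and 5.51% lower. Before adjustment, 19 members had a p under 0.05, against 25.4% of all IDs tested. Without control replicate 2 it called 16 members, against 20.6% of all IDs. Without any 1 of the other 5 libraries of the stage (control replicate 1, control replicate 3 and each atRA replicate) it called 0, against 1.54 to 6.85% of all IDs, with 8 to 22 members at an unadjusted p under 0.05.

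**Figure D4:**
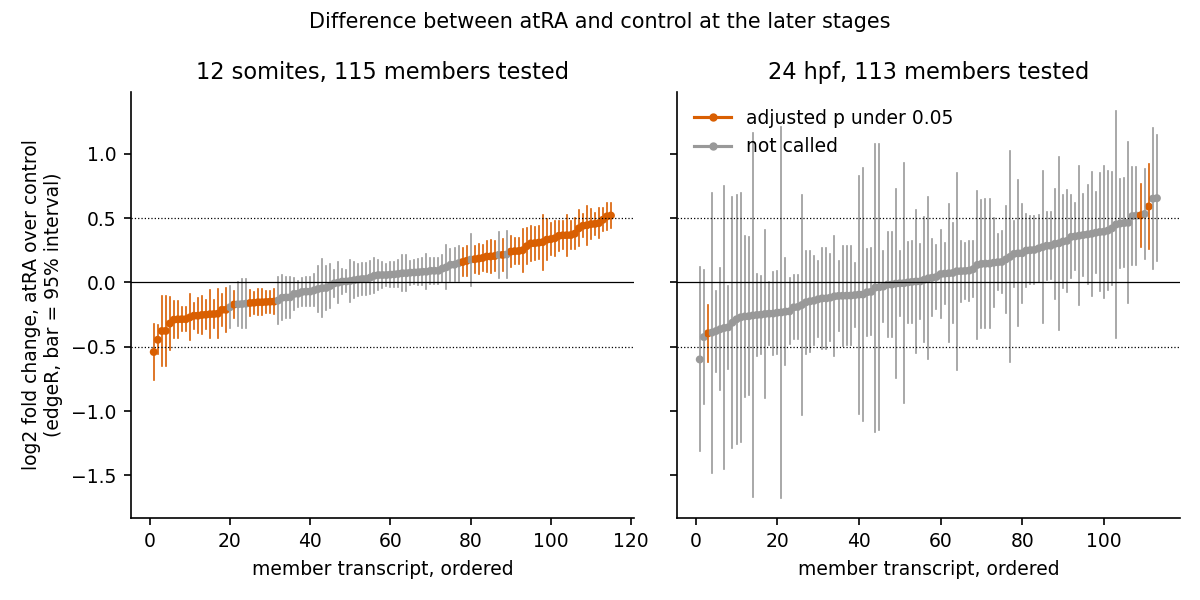
Log2 fold change of atRA over control for each member at 12 somites (115 tested) and 24 hpf (113 tested), ordered at each stage, with 95% intervals from edgeR; dotted lines mark 0.5 and orange marks an adjusted p under 0.05. The median half-width of an interval was 0.124 at 12 somites and 0.387 at 24 hpf.

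Since the members were chosen on all 18 libraries, the conditions were applied again to the libraries of 2 replicate numbers and the same differences were read in the libraries of the third, which had not chosen. Replicate numbers served only to leave libraries out. Here all IDs tested means the 38203 tested at 80% epiboly, at every stage. Leaving out replicate 1, 2 or 3 chose 125, 93 and 103 IDs, of which 100, 77 and 82 were among the 115. In the libraries left out, the gastrula difference was above 0 for 125 of 125, 93 of 93 and 103 of 103 of them, against 59.4, 56 and 58.3% of all IDs tested. Its median was 1.35, 1.21 and 1.25, against 0.055, 0.0357 and 0.0504 over all IDs tested. It reached the limit of 1 for 102, 62 and 73, against 1.96, 1.68 and 1.88% of all IDs tested. The normal rise was at least 2 again for 121, 86 and 103, against 7.12, 6.71 and 7.11% of all IDs tested.

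The later limits behaved differently by stage in the libraries left out, among all IDs tested as well as among the chosen IDs. At 12 somites the absolute difference was again below 0.5 for 118 of 125, 88 of 93 and 100 of 103, where 89.7, 90.2 and 90.8% of all IDs tested were within that limit. At 24 hpf it was below 0.5 for 106 of 125, 51 of 93 and 49 of 103, where 85.7, 67.8 and 61.9% of all IDs tested were. In these readings of 1 atRA library against 1 control library, the 24 hpf limit was met no more often by the chosen IDs than by all IDs tested. Which libraries shared a number was arbitrary. At 24 hpf the same-numbered libraries of replicates 2 and 3 deviated from their group means in opposed ways, with correlations of -0.61 and -0.65 across IDs. The median 24 hpf difference of the chosen IDs was 0.0252, 0.374 and -0.436 in the libraries of replicate 1, 2 and 3 left out. It thus moved in either direction with the library pair. All 4 conditions were met again by 74 of 125, 31 of 93 and 31 of 103, and the share of all IDs tested that met all 4 was not counted. These sets were chosen again each time and were only partly made of the 115 members. In them the gastrula difference and the normal rise recurred in the libraries left out. The size of the 24 hpf difference moved with the libraries read. Both recurring measures contain the same control gastrula library. Since the replicates may not be separate clutches, the recurrence holds between libraries and was not shown between clutches.

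Their course after 12 somites in control embryos was not part of the choice, although the 12 somites controls also entered the normal rise, which favours members that are high there. Between 12 somites and 24 hpf the edgeR test called 28 of 115 higher and 34 lower, against 32.3% and 26.7% of all IDs tested. The median log2 fold change of the members was -0.166 and that of all IDs tested 0.0166. As shares of the 115 these counts were 24.3% higher and 29.6% lower, near the background, so the mix of courses is not a result about the members. The 28 that went on rising had a median log2 fold change of 1.07 and reached 3.04, the 34 that fell had a median of -1.03 and reached -8.09, and 53 were not called. Changes of 1 or more on the log2 scale were called for 15 higher and 17 lower, which is 13% and 14.8% of the 115, against 22.3% and 10% of all IDs tested.

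**Figure D5:**
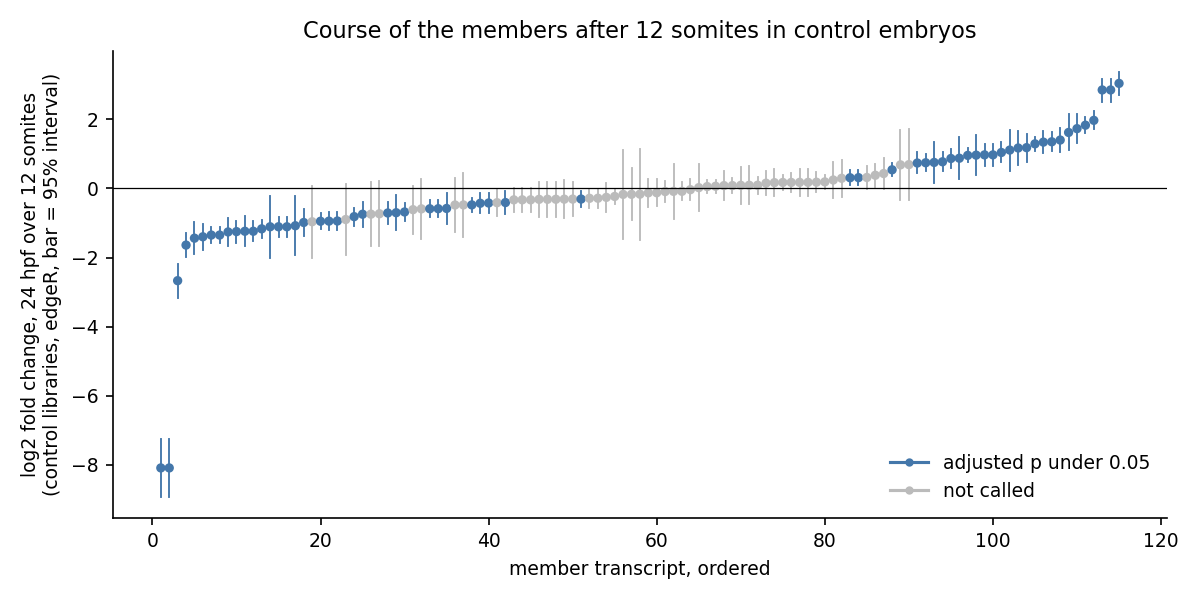
Log2 fold change of 24 hpf over 12 somites in control libraries for each of the 115 members, ordered, with 95% intervals from edgeR; blue marks an adjusted p under 0.05. The range is -8.09 to 3.04, and the near-identical pair lies at the far left.

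The classes by later course overlapped in their gastrula values. The 28 members that went on rising had gastrula differences of 1.01 to 3.13 with a median of 1.54 and a median of 24.4% of the 12 somites level in atRA gastrulae. The 53 not called had medians of 1.17 and 25.9%, and the 34 that fell had medians of 1.3 and 22.4%. Among the 10 members with a gastrula difference of at least 2, 3 went on rising, 4 fell and 3 were not called. Among the 23 from 1.5 to below 2 these numbers were 13, 6 and 4, and among the 82 below 1.5 they were 12, 24 and 46. Over all IDs tested, 32.3% were called higher and 26.7% lower. With 1 ID per near-identical set the bands hold 9, 22 and 69 members, and a near-identical pair is counted among the 4 that fell. Each class shares its libraries with the others, and these values are descriptions.

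In embryos treated from 80% epiboly, 36 members were called higher and 59 lower at 24 hpf than at 12 somites, against 36.5 and 34.4% of all IDs tested. As shares of the members these counts were 31.3 and 51.3%. The atRA libraries of both stages entered the limits on the later differences, and the normal rise favours members high at 12 somites. These shares are therefore descriptions. The common estimate of the biological coefficient of variation by edgeR was 0.095 in this comparison and 0.18 in that of controls. Its part in the number of calls was not tested. Of the 28 members that rose on in controls, 24 were called higher with atRA and 4 were not called. Of the 34 that fell in controls, 32 were called lower with atRA and 2 were not called. None (0) was called in opposite directions. How often IDs in general were called the same way in both comparisons was not counted. With 0.5 CPM added, the atRA change minus the control change equals the 24 hpf difference minus the 12 somites difference. Both differences were limited by the choice, so this agreement follows in part from it and is not a result. The median log2 fold change in these classes was 1.18 and -0.806 with atRA, against 1.07 and -1.03 in controls.

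A further 125 IDs met the same 3 conditions on the atRA differences and had a normal rise below 2. The gastrula difference had a median of 1.23 and quartiles of 1.08 and 1.54 for the members, against a median of 1.19 and quartiles of 1.1 and 1.51 for these. Between 12 somites and 24 hpf in controls, 24.3% of the members were called higher and 29.6% lower, with a median log2 fold change of -0.166. Of the other IDs, 31 of the 121 tested were called higher and 26 lower, or 25.6% and 21.5%, with a median of 0.116. The difference between the 2 sets was not tested, since IDs are not replicates.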

How the data were processed

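What the authors deposited are unnormalized read counts for each versioned Ensembl transcript ID, with 1 library to a file. Per the submitters' processing notes, STAR, HTSeq and the genome build GRCz10 (danRer10) were used; their versions, the strand setting, filters and the annotation used are not given in the sources used here. The 5 summary lines of each file (no feature, 3.1 to 6.35% of the total; ambiguous, 16.9 to 18.9%; not uniquely aligned, 7.12 to 9.38%) stayed out of library sizes and tests. Counts were scaled to CPM by library totals for levels and for choosing members. Each comparison was fitted over all IDs with edgeR 4.0.16 in R 4.3.3 (filterByExpr, TMM factors, glmQLFit, glmQLFTest, Benjamini-Hochberg adjustment, calls at an adjusted p under 0.05). Intervals at 95% used the standard error, computed as the absolute log2 fold change over the square root of F, and the total degrees of freedom of the fit. DESeq2 1.42.0 was an alternative. The scripts were tested on simulated data. Members and lists were chosen with earlier results of these data known. With no gene names, the IDs printed were limited to 4. They were the 2 largest gastrula differences, taken with 0.5 CPM added. The others were the 2 deepest control falls from 12 somites to 24 hpf by fitted log2 fold change. All had at least 10 mean counts in each of the 6 groups, with 1 ID per near-identical set. The gene lists of the design could not be applied, and no sequence is shown. Library batches are not given in the labels, so a batch that followed treatment cannot be told apart from it.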

Additional observations from a re-analysis of the deposited data

How the results depend on the processing

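The number of IDs that met the conditions was 64 with a pseudocount of 1, all of them among the 115, and 95 with TMM-scaled CPM, of which 86 were among the 115. It was 93 to 125 with libraries left out. At 80% epiboly 115 members were called without any 1 library, against 20.5 to 27.2% of all IDs in either direction. With all libraries, 14.1% of all IDs were called higher. At 12 somites 47 to 60 were called when 1 library was left out, against 28.7 to 33.7% of all IDs. With a minimum absolute log2 fold change of 1 there were 0 by edgeR and by DESeq2. By edgeR 3.24% of all IDs were higher and 3.99% lower with that minimum. At 24 hpf, where 3 were called, the count was 1 without a filter, against 6.85% of all IDs. It was 0 with that minimum by edgeR and by DESeq2, against 1.49% of all IDs higher and 2.62% lower by edgeR. When 1 library was left out it was 0 to 16, against 1.54 to 20.6% of all IDs. The DESeq2 test called 4, against 14.2% of all IDs. Between the control stages, 15 were higher and 17 lower with that minimum, against 22.3 and 10% of all IDs. When 1 library was left out 24 to 39 were higher and 26 to 46 lower, against 48.3 to 71.3% of all IDs in either direction. Apart from the replicate block at 24 hpf, the other settings tried left the counts within 1.5 times, as did 1 ID per near-identical set, chosen after seeing the data. Scaling by library totals moved the median log2 fold change of all IDs to 0.4 from 0.076 for 12 somites over 80% epiboly controls and to -0.1 from -0.013 for atRA over control at 24 hpf, where the members' median was -0.0586 in place of 0.032. Of 132 values of the named members, over their 11 called fold changes of atRA over control and of 24 hpf over 12 somites controls, 127 stayed on the same side of 0 and of the threshold and 5, all of 1 member's later fall in controls, were no longer called. Their other fold changes had no alternative run.

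No pairing by replicate number was seen: across IDs, libraries with the same number had deviations from their group means that correlated at -0.043 to 0.048 at 80% epiboly, 0.006 to 0.031 at 12 somites, -0.65 to 0.13 at 24 hpf and 0.04 to 0.25 between the control stages. At 24 hpf the correlations were -0.61 for replicate 2 and -0.65 for replicate 3. A block on the number there joined libraries that deviated in opposed ways, and its part in the calls was not tested. With the replicate number as a block, edgeR called 0 members at 24 hpf, against 0.372% of all IDs, with 6 members at an unadjusted p under 0.05. It called 115 at 80% epiboly and 63 at 12 somites, against 27.4 and 37.1% of all IDs in either direction. Between the control stages it called 27 higher and 43 lower, against 59.8% of all IDs in either direction. Intervals of atRA over control were widest at 24 hpf, where control libraries varied most; the part of depth in this was not tested.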
